A study of Mus musculus with 12 samples.

Results

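The 5.8S ribosomal RNA (rRNA) of mouse and the spacer nucleotides on either side of it were followed at single-nucleotide resolution, in a set of 203 positions that make up 1.51% of the rRNA precursor sequence covered by the data. The set holds mature 5.8S, the last 25 nt of internal transcribed spacer 1 (ITS1), called the 5′ flank below, and the first 25 nt of internal transcribed spacer 2 (ITS2), called the 3′ flank. Members were taken by position alone, with the same positions in every library. The limits of 5.8S had, however, been placed from the steps in depth of these libraries. A higher depth inside than outside is thus part of the choice and is described without a test. At the 3′ end the limit does not sit at a large fall. Below, nucleotides are counted from 1 at the first position of 5.8S, the last ITS1 nucleotide is -1, and the first ITS2 nucleotide is written ITS2 1. The large fall nearest to the 3′ limit lay just past it, from ITS2 1 to ITS2 2.

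The study compared knockdown of Eif3m, the gene of one eIF3 subunit (eIF3 helps the small ribosomal subunit start translation), with a luciferase control siRNA by total RNA sequencing without removal of rRNA. There were 4 groups of 3 libraries. Hepa1c1c7 cells, a mouse hepatoma line, were given one siRNA or the other (10 uM, 3 days), and their RNA came from a nuclear RNA kit. FVB/N mice aged 6 to 8 weeks were given the same siRNAs in lipid nanoparticles by tail vein (0.5 mg/kg, 13 days), and RNA was extracted from whole ground liver. Libraries with Eif3m siRNA are called knockdown cells and knockdown livers below. Whole liver holds other cell types beside hepatocytes, and depth along rRNA checks neither the cell type nor the loss of Eif3m. The labels do not say whether the 3 libraries of a group came from separate cultures or mice, and p-values then measure only the spread between these libraries. Because nuclear RNA of cells and whole RNA of liver were used at different doses and times, these factors cannot be told apart in any contrast between cells and liver, and fewer cells of a type cannot be told apart from less RNA per cell.

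In the large ribosomal subunit 5.8S rRNA is base-paired with 28S rRNA. It is cut from the same long precursor as 18S and 28S: exonucleases trim its 5′ end back from a cut in ITS1, and its 3′ end is trimmed through ITS2 by the exosome in several steps, so that precursors with 3′ extensions precede the mature form. Eukaryotic 5.8S occurs in a long and a short form that differ by a few nucleotides at the 5′ end. Reads over a flank can come from RNA in which that junction was still uncut or incompletely trimmed, and those over the last few nucleotides of ITS1 also from the long mature form. Reads over 5.8S come from mature and precursor RNA together.

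Depth is the number of reads over a position. It is given in ppm of each library's summed depth over the whole precursor, so a flat profile would stand at 74.6 ppm at every position. In unscaled reads, 5.8S had 3286 to 6991 per position in the cell libraries and 5773 to 11511 in the liver libraries. The flanks were at 709 to 5003 reads per position in cells and at 156 to 403 in livers. No member position was empty or at 0 in any library. 1 ppm is worth 140 to 208 reads in cells and 361 to 627 in livers. The number of independent molecules behind these depths is unknown, because one read covers many neighbouring positions.

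Depth over 5.8S was low and uneven in every library. In control cells it took 0.364% ± 0.0052 (SD, n = 3) of all depth, and in control livers 0.271% ± 0.023 (SD, n = 3). Per position 5.8S stood at 19.8% ± 0.7 (SD, n = 3) of the depth of 28S in control cells and at 13.3% ± 1.2 (SD, n = 3) in control livers, although the 2 RNAs are present once each in a ribosome. The highest depth lay at nt 67 in 11 of 12 libraries, and at nt 12 in knockdown cell replicate 1. The last 51 nt of 5.8S had 39.5% ± 0.8 of the depth of the first 51 nt in control cells and 44.9% ± 2.3 in control livers (SD, n = 3 each). After Eif3m siRNA this share was 42.0% ± 3.0 in cells and 46.7% ± 2.7 in livers (SD, n = 3 each). The log2 differences of 0.09 ± 0.06 in cells and 0.05 ± 0.07 in liver (SE) were within the spread of the libraries (exact permutation p = 0.3 and p = 0.4, two-sided).

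**Figure D1:**
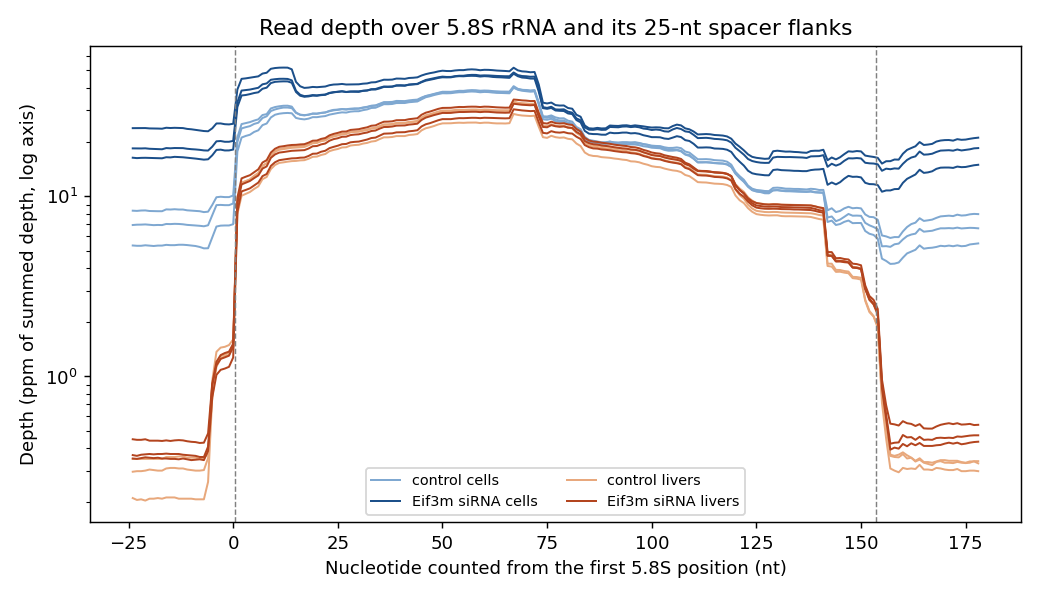
Depth in ppm of each library's summed depth (log axis) against the nucleotide counted from the first 5.8S position, 1 line per library, with dashed lines at the limits of 5.8S. Cell flanks lie between 5.05 and 24.0 ppm and liver flanks between 0.390 and 0.643 ppm, while the 5.8S means lie between 16.0 and 33.6 ppm.

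Depth stepped up within 1 nt at the 5′ limit of 5.8S and came down in several steps toward the 3′ limit. From nt -1 to nt 1 depth rose to 549% to 620% of its value in control livers and to 210% to 253% in control cells. At the other end a fall lay just past the limit used here, from ITS2 1 to ITS2 2, where 36.9% to 41.5% of the depth was left in control livers and 77.5% to 81.9% in control cells. Another fall lay inside 5.8S between nt 141 and nt 142, and in control cells it was the steeper of these falls. It left 54.0% to 55.3% of the depth in control livers and 68.9% to 77.0% in control cells. The 5 positions just outside the 5′ limit held 1.37 ± 0.10 ppm and the 5 just inside it 11.2 ± 1.0 ppm in control livers (SD, n = 3). In control cells these values were 8.61 ± 1.56 and 23.2 ± 1.9 ppm (SD, n = 3). Around the 3′ limit the 5 positions inside and the 5 outside held 2.97 ± 0.26 and 0.789 ± 0.058 ppm in control livers and 7.32 ± 0.76 and 5.48 ± 0.82 ppm in control cells (SD, n = 3).

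Relative to summed depth, both flanks were more than 2.6 times as deep in Hepa1c1c7 cells after Eif3m siRNA, whereas 5.8S itself was 1.32 times as deep. The 5′ flank had 5.65, 8.68 and 7.39 ppm in the control libraries and 24.0, 16.7 and 18.7 ppm in the Eif3m siRNA libraries. The 3′ flank had 5.05, 7.21 and 6.25 ppm in controls and 18.9, 13.2 and 16.7 ppm after Eif3m siRNA. The lowest knockdown library lay above the highest control library in each flank. The log2 difference was 1.46 ± 0.24 (SE), or 2.75-fold, for the 5′ flank and 1.40 ± 0.21 (SE), or 2.64-fold, for the 3′ flank. The exact permutation p was 0.1 for both, the smallest that 3 against 3 libraries allow. With median-of-ratios scaling these differences were 0.89 ± 0.19 and 0.83 ± 0.16 (SE). All 10 values compared in each system were tested in this way, without adjustment across them.

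5.8S itself had 23.4, 24.1 and 23.9 ppm in control cells and 33.6, 29.6 and 31.1 ppm in knockdown cells, again without overlap. The log2 difference was 0.40 ± 0.05 (SE; exact permutation p = 0.1), but it was -0.17 ± 0.02 (SE) when libraries were scaled by the median of ratios over positions, a scaling that moves the median change of all positions from 0.58 to 0.01. Scaled to the depth of 18S and 28S instead, the difference was 0.48 ± 0.07 (SE). The direction for 5.8S thus holds relative to the summed or mature depth and not relative to the median over all positions.

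**Figure D2:**
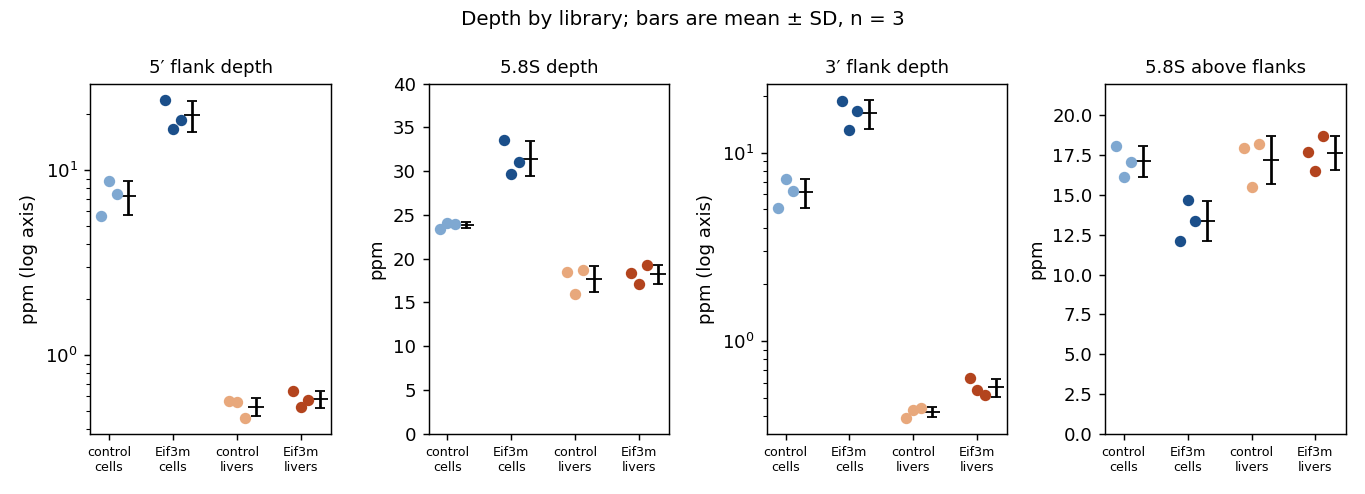
Depth in ppm by library for the 5′ flank and 3′ flank (log axes), 5.8S and 5.8S above the mean of its flanks (linear axes from 0); points are libraries and bars are mean ± SD, n = 3. Knockdown cells lie above control cells in both flanks and in 5.8S (below them in 5.8S with median-of-ratios scaling), and below them in 5.8S above its flanks.

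Flank depth approached that of 5.8S in the knockdown cells. The mean of both flanks was 22.8%, 33.0% and 28.5% of 5.8S depth in control cells and 64.0%, 50.5% and 57.1% in knockdown cells. This ratio does not depend on scaling, and the change amounted to 1.03 ± 0.18 on the log2 scale (SE; exact permutation p = 0.1). With the flank mean subtracted, 5.8S stood at 18.1, 16.2 and 17.1 ppm in control cells and at 12.1, 14.7 and 13.3 ppm in knockdown cells. The groups did not overlap, and differed by -0.36 ± 0.09 in log2 units (SE; exact permutation p = 0.1), or by -0.93 ± 0.16 (SE) with median-of-ratios scaling. Depth of 28S above its own 25-nt flanks stood at 109 ± 3.9 ppm in control cells and at 85.7 ± 6.1 ppm in knockdown cells (SD, n = 3 each). The quotient of the 2 was 0.157 ± 0.0040 in control cells and 0.156 ± 0.0038 in knockdown cells (SD, n = 3 each). The log2 difference of this quotient was -0.0075 ± 0.029 (SE; exact permutation p = 0.8), and with flanks of 10 nt it was 0.085 ± 0.019 (SE; exact permutation p = 0.1).

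The flanks of 18S and 28S showed the same order. Flanks of 25 nt held 2.39% ± 0.44 of 18S depth in control cells and 7.03% ± 1.02 after Eif3m siRNA, and 9.30% ± 1.42 and 24.3% ± 4.2 of 28S depth (SD, n = 3 each). Those of 5.8S held 28.1% ± 5.1 and 57.2% ± 6.7 (SD, n = 3 each). The share was thus largest for 5.8S in both groups of cells, but 5.8S was also the shallowest of the 3 RNAs. Relative to its control value the share rose least for 5.8S. In cells, however, the depth that the share is taken of also rose for 5.8S, from 23.8 to 31.4 ppm. For 18S it went from 212 to 200 ppm and for 28S from 120 to 113 ppm. The order thus holds for the share of total depth, and no order was tested for depth above flanks. In livers the share was 0.127% ± 0.005 and 0.189% ± 0.024 for 18S, and 0.758% ± 0.052 and 1.01% ± 0.08 for 28S, without overlap. For 5.8S it was 2.70% ± 0.36 and 3.15% ± 0.32 in livers, with overlap (SD, n = 3 each).

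The difference in 5.8S depth above its flanks was uneven along the molecule, an observation made after the profiles were seen and given without a test. The first 51 nt of 5.8S stood 23.8 ± 0.6 ppm above the flank mean in control cells and 23.7 ± 1.1 ppm in knockdown cells (SD, n = 3 each). For the middle 51 nt these values were 22.2 ± 1.4 and 17.0 ± 1.8 ppm. The last 51 nt stood at 6.45, 4.50 and 5.10 ppm above the flanks in control cells and at -2.30, 0.449 and 0.306 ppm in knockdown cells. Groups overlapped for the first 51 nt and not for the rest. In the knockdown cells 35, 32 and 32 positions of 5.8S were shallower than the mean of the flanks, against 0, 3 and 1 in control cells and 0 in every liver library. The position of lowest depth within 5.8S was the last nucleotide in all 3 control cell libraries and nt 142 in all 3 knockdown cell libraries.

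**Figure D3:**
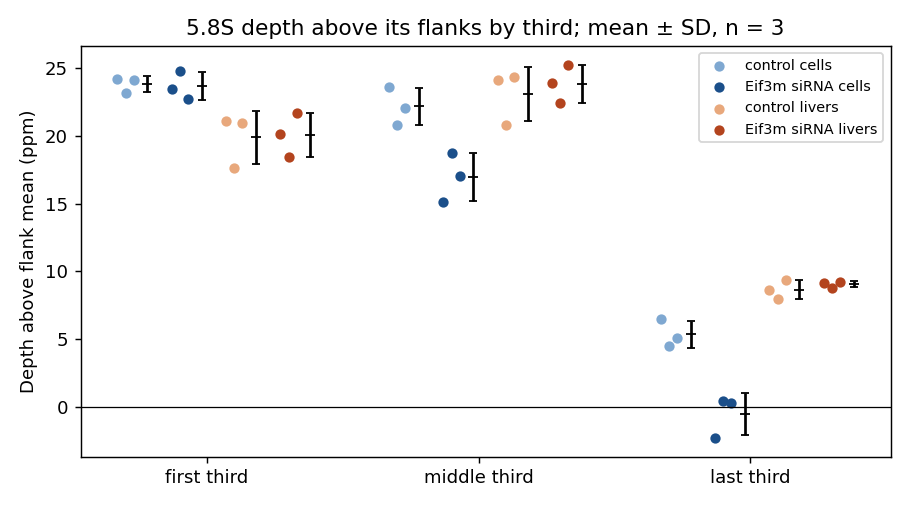
Depth of the first, middle and last 51 nt of 5.8S above the mean of both flanks, in ppm, by library (points) with mean ± SD (bars, n = 3). In knockdown cells the last 51 nt lie between -2.30 and 0.449 ppm, and in the other groups between 4.50 and 9.34 ppm.

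Single positions were compared with limma, fitted to log2(ppm + 0.01) at every position of the precursor, with Benjamini-Hochberg adjustment over all of them and a threshold of 0.05. Neighbouring positions share reads, and spacer positions of a library move together, so these adjusted p-values are smaller than 3 libraries per group warrant. In cells 51.4% of all positions were called higher and 13.6% lower. All 25 positions of the 5′ flank and all 25 of the 3′ flank rose, as did 143 positions of 5.8S, or 93.5% of it, and 0 fell. The knockdown libraries lay above every control library at each position of 5.8S and of both flanks, and at 51.8% of all positions. Of 28S positions 0.0212% were called higher and 25.4% lower, and of 18S positions 6.39% and 33.0%. The median log2 change was 1.51 over the 5′ flank, 0.37 over 5.8S and 1.41 over the 3′ flank, beside 0.58 over all positions, -0.09 over 18S and -0.07 over 28S. The 5.8S calls depended on the scaling: with the median of ratios 10 positions were higher and 56 lower.

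The change in cells followed the shape of a trough. It fell from 1.52 ± 0.17 (SE) at nt -25 to 1.28 ± 0.16 at nt -1, and to 0.81 ± 0.10 at nt 1 (limma adjusted p = 1.8e-12). The 10 uncalled positions were nt 77 and the stretch from nt 81 to nt 89. The smallest change was 0.19 ± 0.11 (SE) at nt 85 (limma adjusted p = 0.13). Between nt 141 and nt 142 the change went from 0.62 ± 0.16 to 0.85 ± 0.18 (SE), and it reached 1.07 ± 0.19 (SE) at the last nucleotide of 5.8S (limma adjusted p = 1.1e-07) and 1.45 ± 0.18 (SE) at ITS2 25. All of these values are relative to summed depth.

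**Figure D4:**
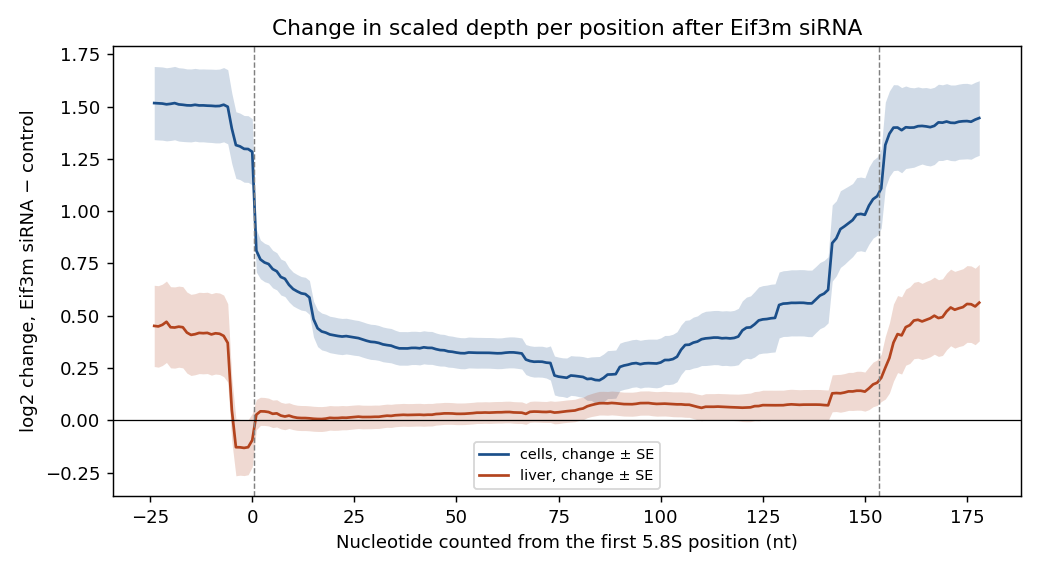
Log2 change in scaled depth (Eif3m siRNA minus control) per position, as log2(ppm + 0.01), with limma's SE as a band, for cells and liver; dashed lines mark the limits of 5.8S. Cells change most in the flanks (up to 1.52) and least at nt 85 (0.19), and liver is near 0 over 5.8S and up to 0.56 in the 3′ flank; with median-of-ratios scaling the median over all positions moves from 0.58 to 0.01 in cells and from 0.20 to 0.03 in liver, and the mean over 5.8S changes sign in both.

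Several steps of the profile, taken as depth after the step in percent of that before it, differed between control and knockdown cells without overlap. They were found by inspection and are given without a test. The rise from nt -1 to nt 1, the step with the largest difference, went to 253%, 210% and 220% in control cells and to 155%, 172% and 164% in knockdown cells. Between nt 14 and nt 16 depth dropped to 93.1%, 90.0% and 92.0% of its value in control cells and to 80.5%, 84.7% and 83.1% in knockdown cells. In liver no drop was seen there, with 101% left in each of the 6 libraries. The fall from nt 141 to nt 142 left 68.9%, 77.0% and 72.7% in control cells and 87.5%, 81.6% and 86.1% in knockdown cells. In liver that fall left 54.0% to 55.3% in controls and 56.5% to 57.7% after Eif3m siRNA. The fall from ITS2 1 to ITS2 2 left 77.5%, 81.9% and 80.4% in control cells and 92.9%, 91.9% and 92.1% in knockdown cells. The drop after nt 14 was thus deepest in the knockdown cells, and the rise at the 5′ limit and both falls near the 3′ limit were smallest in them.

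In liver 5.8S depth after Eif3m siRNA overlapped that of the controls, while the 3′ flank was 1.34 times as deep without overlap. 5.8S had 18.4, 16.0 and 18.7 ppm in control livers and 18.4, 17.1 and 19.2 ppm in knockdown livers. The log2 difference was 0.04 ± 0.09 (SE; exact permutation p = 0.7), and it was -0.027 without control liver replicate 2 and -0.13 with median-of-ratios scaling. Above its flanks 5.8S stood at 17.2 ± 1.5 and 17.6 ± 1.1 ppm (SD, n = 3 each), differing by 0.04 ± 0.09 in log2 units (SE; exact permutation p = 0.7). That difference was -0.037 without control liver replicate 2, -0.0046 without knockdown liver replicate 3 and -0.13 with median-of-ratios scaling.

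The 3′ flank of the liver had 0.390, 0.432 and 0.441 ppm in controls and 0.635, 0.550 and 0.515 ppm after Eif3m siRNA, with no overlap. The log2 difference was 0.43 ± 0.10 (SE; exact permutation p = 0.1, the smallest possible), and 0.26 ± 0.08 (SE) with median-of-ratios scaling. The 5′ flank had 0.565, 0.558 and 0.458 ppm in controls and 0.643, 0.522 and 0.575 ppm after Eif3m siRNA. These groups overlapped, differing by 0.14 ± 0.13 in log2 units (SE; exact permutation p = 0.4), and the direction turned with flanks of 10 nt (-0.027) and with median-of-ratios scaling (-0.031). Together the flanks amounted to 2.70% ± 0.36 of 5.8S depth in control livers and to 3.15% ± 0.32 with knockdown (SD, n = 3 each; log2 difference 0.23 ± 0.14, SE; exact permutation p = 0.2).

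Position by position, limma called 51.1% of the tested liver positions higher and 17% lower, but 0 of 5.8S in either direction (0 also at an unadjusted limma p under 0.05), with a median change of 0.04 beside 0.20 over all positions. Of 18S positions 97.8% were called higher, and of 28S positions 46.7% lower. Groups did not overlap, with knockdown higher, at 1 position of 5.8S, 8 of the 5′ flank and 25 of the 3′ flank, and at 49.9% of tested positions. Of the 3′ flank 21 of 25 positions rose, and the 4 not called were ITS2 1 to ITS2 4. Depth at ITS2 1, before the fall to ITS2 2, was 1.89, 1.86 and 2.19 ppm in control livers, so the first nucleotides past the limit used here may belong to mature 5.8S. Without the first 5 nt the 3′ flank held 0.329 ± 0.021 ppm in control livers and 0.472 ± 0.060 ppm after Eif3m siRNA (SD, n = 3 each), which differed by 0.52 ± 0.12 in log2 units (SE). Over all 25 positions of the 3′ flank the median change was 0.49, and the largest 0.56 ± 0.18 (SE) at ITS2 25 (limma adjusted p = 0.005). Of the 5′ flank 11 of 25 positions rose, all of them between nt -25 and nt -12. A single control library decided the 5.8S count: without control liver replicate 1, 41 positions of 5.8S were called higher. For the 5′ flank the count went to 3, 19 and 0 without control liver replicate 1, 2 or 3 and to 0, 1 and 5 without knockdown liver replicate 1, 2 or 3. For the 3′ flank it went to 9 without control liver replicate 1, 11 without knockdown liver replicate 1 and 10 without knockdown liver replicate 2. The libraries scaled by the median of ratios gave 82 lower positions in 5.8S, 5 lower in the 5′ flank and 7 higher in the 3′ flank.

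The 5′ flank held a shallow upstream part and a deeper part next to 5.8S, described here apart without a test of the difference between them. Between nt -7 and nt -5 depth rose in each of the 12 libraries onto a short shelf that ended at the limit of 5.8S. In control livers the shelf, nt -5 to nt -1, held 1.37 ± 0.10 ppm, and the 18 nt upstream, nt -25 to nt -8, held 0.288 ± 0.073 ppm (SD, n = 3 each). After Eif3m siRNA the shelf held 1.26 ± 0.12 ppm and the upstream part 0.385 ± 0.048 ppm (SD, n = 3 each). In liver the changes at the 5 shelf positions were -0.13 to -0.10, and those between nt -25 and nt -8 were 0.40 to 0.47. By library the upstream part held 0.303, 0.352 and 0.210 ppm in controls and 0.439, 0.349 and 0.367 ppm after Eif3m siRNA, and the groups overlapped in both parts.

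With the upstream part subtracted from both, the shelf was expressed as a share of the depth at nt 2 to nt 5. The share so compares depth just outside with depth just inside the 5′ limit. This measure was defined after the profiles were seen and was not tested. In control livers the share was 9.73%, 9.26% and 9.23%, and in knockdown livers 7.84%, 7.27% and 7.29%. The groups did not overlap, and the difference was -1.94 ± 0.25 percentage points (SE). In control cells the share was 9.46%, 9.26% and 11.6% and in knockdown cells 6.93%, 8.51% and 8.82%, a difference of -2.02 ± 0.95 points (SE). The knockdown libraries were thus lower than every control library in both systems. In cells, where upstream depth is much of the total, the difference depended on what was subtracted: with nt -9 to nt -8 as the baseline it was -0.896 ± 0.735 points (SE) and the groups overlapped, whereas in liver it was -1.89 ± 0.26 points (SE) without overlap. In cells it was -1.27 points without control cell replicate 3.

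**Figure D5:**
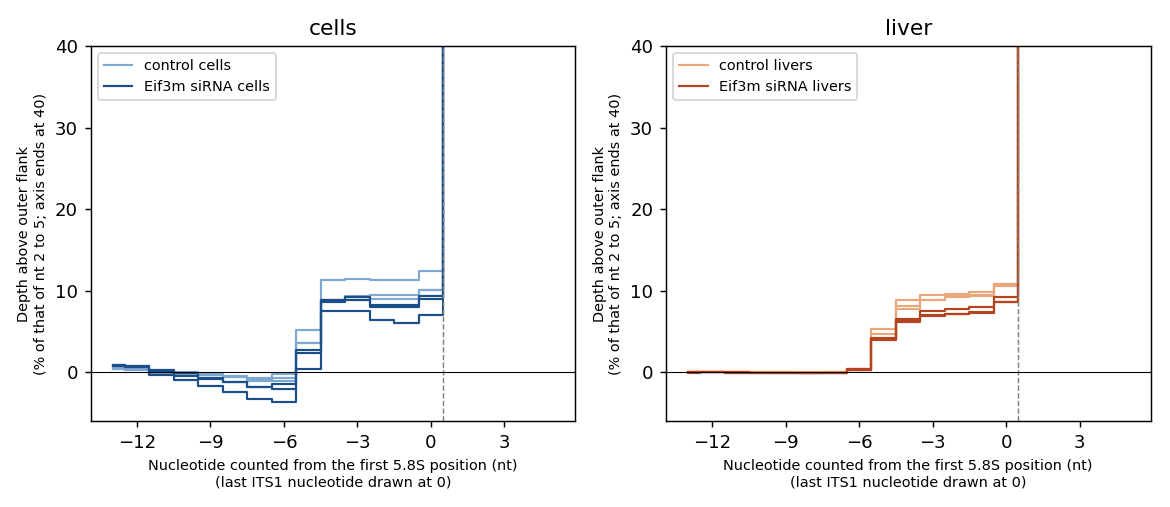
Depth above the mean of nt -25 to nt -8, as a percentage of that of nt 2 to nt 5, against the nucleotide around the 5′ limit of 5.8S (dashed line), 1 line per library. In liver the 3 Eif3m siRNA lines (7.27% to 7.84% over nt -5 to nt -1) lie below the 3 control lines (9.23% to 9.73%), and in cells the shelf lies between 6.93% and 11.6%.

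The flanks were also set against the rest of their spacers. The 5′ flank was 1.74 ± 0.08 times as deep as the rest of ITS1 in control cells and 1.76 ± 0.11 times in knockdown cells (SD, n = 3 each; log2 difference 0.013 ± 0.065, SE; exact permutation p = 0.8). In liver it was 3.40, 3.37 and 3.13 times as deep as the rest of ITS1 in controls and 2.07, 2.12 and 2.27 times after Eif3m siRNA. The groups did not overlap, and the log2 difference was -0.62 ± 0.06 (SE; exact permutation p = 0.1). The 5′ flank itself held 0.527 ppm in control livers and 0.580 ppm after Eif3m siRNA, with overlap. Relative to summed depth, the lower ratio thus reflects a deeper rest of ITS1 and not a shallower flank. This ratio joins both parts of the 5′ flank. In livers the shelf held 1.37 ppm in controls and 1.26 ppm after Eif3m siRNA, and the upstream part 0.288 and 0.385 ppm. The 3′ flank stood at 0.821 ± 0.028 of the rest of ITS2 in control cells and at 0.835 ± 0.014 in knockdown cells (SD, n = 3 each; exact permutation p = 0.6). In liver these values were 1.12 ± 0.18 and 1.09 ± 0.004 (SD, n = 3 each; exact permutation p = 1). The 3′ flank over the 5′ flank was 0.857 ± 0.033 and 0.825 ± 0.059 in cells (exact permutation p = 0.5) and 0.809 ± 0.139 and 0.980 ± 0.079 in liver (exact permutation p = 0.2; SD, n = 3 each).

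Taking both systems at once, with labels exchanged within each, allowed exact permutation p-values down to 0.005. The 3′ flank rose by 0.91 ± 0.12 (log2, SE; exact permutation p = 0.005) and was higher in all 6 knockdown libraries than in the controls of their system. The 5′ flank rose by 0.80 ± 0.14 (SE; exact permutation p = 0.02), a call that was lost with flanks of 10 nt (p = 0.06 in the exact permutation test) and with median-of-ratios scaling (p = 0.065). That value joins 1.46 in cells with 0.14 in liver, where the groups overlapped. Flanks over 5.8S rose by 0.63 ± 0.11 (SE; exact permutation p = 0.01), joining 1.03 in cells with 0.23 in liver, where the groups overlapped. 5.8S depth rose by 0.22 ± 0.05 (SE; exact permutation p = 0.035), but this joins 0.40 in cells with 0.04 in liver, was lost without control cell replicate 1, 2 or 3 or knockdown liver replicate 3 (0.20 to 0.23, exact permutation p = 0.05 each) and without control liver replicate 2 (0.19, exact permutation p = 0.065), and turned to -0.15 (exact permutation p = 0.025) with median-of-ratios scaling. 5.8S above its flanks did not pass (-0.16 ± 0.06, SE; exact permutation p = 0.11), nor did its quotient with 28S above flanks (0.075 ± 0.052, SE; exact permutation p = 0.25). The first of these passed without control liver replicate 2 (-0.20, exact permutation p = 0.035) and with median-of-ratios scaling (-0.53, exact permutation p = 0.015), and the second with flanks of 10 nt (0.12, exact permutation p = 0.02). The 5′ flank over the rest of ITS1 was at -0.30 ± 0.04 (SE; exact permutation p = 0.065), joining 0.013 in cells with -0.62 in liver. It passed with flanks of 10 nt (-0.42, exact permutation p = 0.02) and without control cell replicate 1, knockdown cell replicate 1 or knockdown cell replicate 2 (-0.32 to -0.31, exact permutation p = 0.035 to 0.045).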

How the data were processed

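Members, values and tests were chosen with earlier results of these data known. The authors deposited 1 table of coverage signal: whole numbers of reads over each of 13400 positions, unscaled, 1 column per library. The submitters' processing notes name BWA 0.7.12 and SAMtools 1.3. Their options, the handling of duplicates and of reads with several matches (rRNA genes are repeated), and the reference's name: not given in the sources used here. Per the labels' protocols a Clontech pico kit was used without ZapR, the step that removes rRNA. Titles carry each column's code, which matched columns to samples, and 0 columns were unused.

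5.8S was 6877 to 7029 (153 positions), its flanks 6852 to 6876 and 7030 to 7054, 18S 4006 to 5882 and 28S 8121 to 12837; 5.8S was also split into stretches of 51 nt. The 85 empty cells were read as 0, and 0 of them lay in members. Region means were compared as log2 values with exact two-sided permutation tests (Python 3.11.15); p-values were not adjusted. Positions with a mean depth of at least 10 were fitted with limma 3.58.1 (R 4.3.3; lmFit, eBayes with trend). The fit was first tried on simulated positions drawn independently of each other. That trial cannot show how calls behave where neighbouring positions share reads. Named positions are the largest and smallest change in each region, the outermost positions and the highest depth; others were singled out after their values were seen. Alternatives covered flank width, edges, medians, scaling, pseudocounts, filters, the replicate block and each library left out. Labels share replicate numbers but name no shared origin; correlations of same-numbered libraries' deviations ran from -0.72 to 0.30, so the numbers were not taken as pairs.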

Additional observations from a re-analysis of the deposited data

Results flagged for a closer look

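The change after Eif3m siRNA differed between liver and cells by limma's test of the difference at 122 positions of 5.8S, at 25 of 25 positions of the 5′ flank and at 25 of 25 of the 3′ flank, all of them lower in liver. Over all positions tested limma called 33% lower and 12.9% higher in liver. The median difference (liver minus cells, log2) was -0.33 over 5.8S, -1.09 over the 5′ flank and -0.92 over the 3′ flank, beside -0.29 over all positions tested. The largest was -1.44 ± 0.21 (SE) at nt -5 (limma adjusted p = 4.8e-06), and within 5.8S it was -0.89 ± 0.19 (SE) at the last nucleotide (limma adjusted p = 0.00011). The 31 positions of 5.8S not called ran from nt 74 to nt 104. With median-of-ratios scaling 16 positions of 5.8S were called. RNA fraction, dose and time differ between the systems and cannot be told apart here.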

How the results depend on the processing

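Values are log2 differences or counts of positions, with exact permutation p-values, and the cause of each change was not tested. Median-of-ratios scaling turned 5.8S depth to -0.17 in cells, -0.13 in liver and -0.15 over both systems, the 5′ flank in liver to -0.031 and 5.8S above flanks in liver to -0.13. It gave 0.43 for the 5′ flank (exact permutation p = 0.065) and -0.53 for 5.8S above flanks (exact permutation p = 0.015) over both systems. Its position calls were 66 in 5.8S of cells, 82, 5 and 7 in 5.8S, the 5′ flank and the 3′ flank of liver, and 16 in 5.8S for liver minus cells. Flanks of 10 nt gave -0.027 for the 5′ flank in liver and 0.68 over both systems (exact permutation p = 0.06). For the 5′ flank over the rest of ITS1 they gave -0.062 in cells and -0.42 over both (exact permutation p = 0.02). For the 3′ flank over the rest of ITS2 they gave -0.018 in cells and -0.070 over both, and for 5.8S over 28S above flanks 0.085 in cells and 0.12 over both (exact permutation p = 0.02). The 3′ flank over the rest of ITS2 in liver turned to 0.036 with flanks of 50 nt, 0.058 with 5 nt beside each edge left out and 0.088 with medians. Medians also gave -0.0062 for it in cells and -0.018 for the 3′ over the 5′ flank over both systems. Calls in the 5′ flank of liver were 0 without limma's trend. Same-numbered libraries did not deviate together; with the replicate number as a block, 5.8S depth and the 5′ flank over both systems stayed at 0.22 and 0.80 (exact permutation p = 0.0625 each), and 19 positions of the 5′ flank were called in liver. With 1 library left out, 5.8S depth ran from -0.027 to 0.091 in liver and from 0.19 to 0.24 over both systems. 5.8S above flanks ran from -0.037 to 0.084 in liver and from -0.20 to -0.13 over both. The 5′ flank over ITS1 ran from -0.025 to 0.063 in cells and from -0.32 to -0.28 over both. The 3′ flank over ITS2 ran from -0.090 to 0.11 in liver and from -0.033 to 0.066 over both, where it passed without control liver replicate 3 (exact permutation p = 0.035). 5.8S over 28S above flanks ran from -0.025 to 0.014 in cells. Liver calls ran from 0 to 41 in 5.8S, 0 to 19 in the 5′ flank and 9 to 22 in the 3′ flank. In all, 538 of the alternative values kept their direction and, where tested, their side of the threshold (counts: stayed within 1.5 times). Of the others 30 turned direction, 9 lost and 8 gained a call, and 17 counts moved further. Within 1 system no exact permutation p could fall under 0.05, so only the direction of those values was open to change. Edges from an annotation were not run, as no rRNA annotation was used here. Depth limits the precision of the liver flanks, at 156 to 403 reads per position, and of their upstream part, at 125 to 276.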
